A study of Mus musculus with 4 samples.

Results

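The endoplasmic reticulum (ER) stress genes Hspa5, Hsp90b1, Dnajb9, Dnajc3, Herpud1, Xbp1, Sdf2l1, Pdia4, Calr and Edem1 were read in 3D-cultured mouse mammary cells treated with baicalin, a flavonoid glycoside from the root of Scutellaria baicalensis. The 10 genes were found by symbol, 1 row each, among the 54446 genes of the expression table. All 10 were above 0 in all 4 libraries and so belong to the 17787 genes compared. The label of the gene set is broader than chaperones, since Xbp1 encodes a transcription factor and Herpud1 and Edem1 encode parts of the ER degradation machinery.

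The cells came from the mammary glands of wild type C57BL/6 female mice, of 6 to 9 weeks by the study's methods, were sorted by FACS to a stated purity above 95%, and were grown in Matrigel, a basement membrane gel. Basal cells form the outer layer of the mammary epithelium and luminal cells its inner layer, and cells with either label received the solvent DMSO or 100 μM baicalin. Each of these 4 conditions has 1 library, and the number of donor animals is not stated. The DMSO and baicalin libraries with the basal label are called the basal pair, and those with the luminal label the luminal pair. There are no replicates, so no p-value is given, the differences describe these libraries, and the effect of baicalin and other differences between cultures cannot be told apart. Levels are FPKM, a fragment count divided by exon length in kilobases and scaled to library depth, and between 19355976 and 20648663 fragments lay behind each library.

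The cell type names are used only as labels of the libraries, because the basal and luminal marker lists went against them. Of 10 basal cell markers, 10 were higher under the luminal label, both with DMSO and with baicalin, and of 10 luminal cell markers 0 were. Summed over the list, basal markers came to 1776 FPKM with DMSO and 480 with baicalin in the basal pair, and to 5376 and 7192 in the luminal pair. Luminal markers summed to 4573, 3250, 1396 and 1214 FPKM in the same order. Markers of hormone-sensing luminal cells did not go one way. With DMSO 6 of 10 were higher under the luminal label, where 52.5% of all genes were. With baicalin 6 were, not all of them the same genes, where 45.2% of all genes were. Pgr, the progesterone receptor gene, had 1.08 and 4.81 FPKM under the basal and luminal labels with DMSO, and 0.912 and 2.09 with baicalin. Areg, of the same list, had 63.2 and 21.4 FPKM, and 158 and 37.5. The list sum was higher under the basal label in both treatments. Of 10 alveolar luminal markers, 4 were higher under the luminal label with DMSO and 4, not all the same genes, with baicalin. Some of these were near 0, such as Csn2, at 0 and 0.0075 FPKM under the basal and luminal labels with DMSO. Within the basal pair, 9 of 10 basal markers were lower with baicalin, where 50.9% of all genes compared were higher. In log2 after adding 1 FPKM, 5 basal markers were lower by more than 1, where 3.33% of all genes were. The part of these differences in the member values below was not tested. In such bulk samples, fewer cells of a type and less RNA per cell cannot be told apart.

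Proteins bound for secretion fold in the ER, and when unfolded proteins build up there, a signaling network called the unfolded protein response (UPR) is switched on. Its sensors are IRE1, which splices Xbp1 mRNA so that it encodes an active transcription factor, ATF6, which is cut to release one, and PERK, which slows translation and favors translation of the transcription factor ATF4. Targets of these arms include the ER chaperones, the folding enzymes and the proteins that send misfolded clients to the proteasome. The secretory epithelium of the mammary gland has to fold large amounts of milk protein during lactation.

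Promoters of several UPR targets hold short motifs known to be bound by ATF6, XBP1 or ATF4, and the windows from 250 bases before to 50 bases after the RefSeq transcription start (GRCm38.p6) were searched for 4 of them on both strands. The ER stress response element (ERSE), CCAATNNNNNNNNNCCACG, was found in Hspa5, Hsp90b1, Dnajc3 and Calr, 4 of the 10 genes, and in 39 of 32851 windows, 0.119%. The related ERSE-II, ATTGGNCCACG, was found in Herpud1 and in 12 windows, 0.0365%. The composite site bound by ATF4 with a partner, TGATGNAA, was found in Herpud1 and in 1304 windows, 3.97%. The XBP1 and ATF6 site TGACGTGG was found in 0 members and in 222 windows, 0.676%. The motifs were chosen because they are known from promoters of UPR targets. The counts among the members, set beside these shares, are therefore no test of enrichment. Windows of Dnajb9, Xbp1, Sdf2l1, Pdia4 and Edem1 held none of these letters, which says nothing about other sequences or other distances. The matches are shown with flanking bases, in the orientation of the gene, with the motif in capitals, to let the matched letters be compared between the members that hold a motif.
Hspa5 (chr2:34772020-34772048, + strand): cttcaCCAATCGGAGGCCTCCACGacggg
Hsp90b1, far match (chr10:86705618-86705676, - strand): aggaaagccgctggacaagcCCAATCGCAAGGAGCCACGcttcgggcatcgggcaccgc
Hsp90b1, near match, motif reversed (chr10:86705513-86705571, - strand): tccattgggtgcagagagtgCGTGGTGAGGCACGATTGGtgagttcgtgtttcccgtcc
Dnajc3 (chr14:118937807-118937865, + strand): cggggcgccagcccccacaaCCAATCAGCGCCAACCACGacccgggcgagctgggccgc
Calr, motif reversed (chr8:84847055-84847113, - strand): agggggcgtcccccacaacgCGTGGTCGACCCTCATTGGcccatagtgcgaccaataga
Herpud1, ATF4 composite site reversed, then ERSE-II (chr8:94386297-94386407, + strand): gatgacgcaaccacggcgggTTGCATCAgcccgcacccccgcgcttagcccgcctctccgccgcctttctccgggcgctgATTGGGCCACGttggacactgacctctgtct

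The ERSE of Hspa5 began 65 bases before the start, that of Dnajc3 105 bases, that of Calr 162 bases, and those of Hsp90b1 212 and 107 bases. In Herpud1 the ATF4 composite site began 112 bases and the ERSE-II 52 bases before the start. Hspa5 is shown with fewer flanking bases since a GENCODE exon of the gene covers the site. A match is a run of letters, and binding was not measured.

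**Figure D1:**
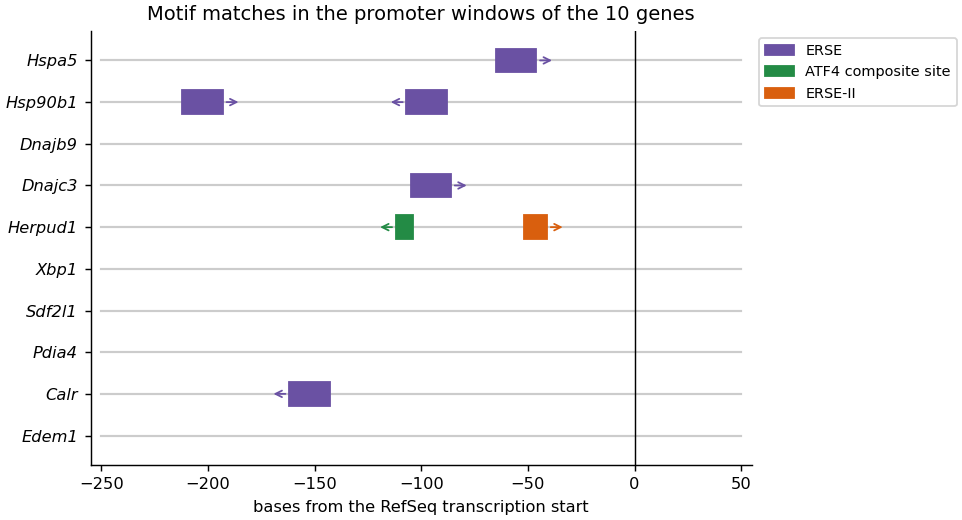
Motif matches in the promoter windows of the 10 genes, with the distance from the RefSeq transcription start in bases on the horizontal axis and 1 line per gene. Boxes are matches, arrows point along the motif, and the matches of Hspa5, Hsp90b1, Dnajc3, Herpud1 and Calr lie between 212 bases before the start and the start.

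The 10 genes spanned a wide range of levels. Calr, Hspa5 and Hsp90b1 were the 3 highest in all 4 libraries, each at or above percentile 98.7 of the genes compared, and together they held between 74.9% and 80.3% of the summed FPKM of the 10. Pdia4 was the next in each library. Sdf2l1 was the lowest member except in the DMSO library labelled luminal, where Edem1 was. The order was taken per length of exon, and of the 9 pairs of neighbours in each order, 1 could not be separated by counting error in each library except the DMSO library labelled luminal, where 3 could not. In that library the pairs were Dnajc3 and Xbp1, Dnajb9 and Herpud1, and Sdf2l1 and Edem1. In the other libraries they were Herpud1 and Sdf2l1 (basal, DMSO), Dnajb9 and Dnajc3 (basal, baicalin), and Dnajb9 and Xbp1 (luminal, baicalin).

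**Figure D2:**
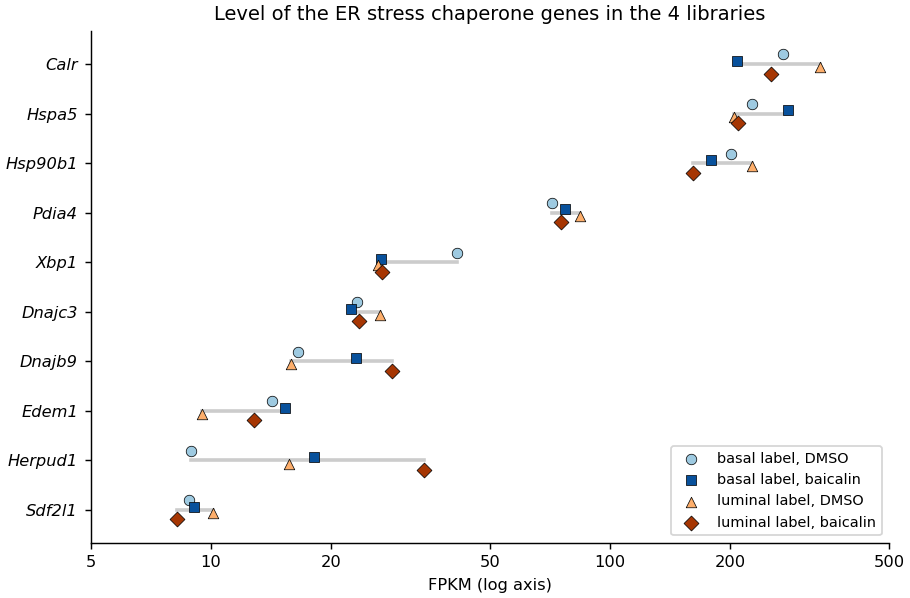
FPKM of each of the 10 genes on a log axis, with 1 point for each of the 4 libraries and a grey bar from the lowest to the highest. Herpud1 spans the widest range, 3.84-fold, and the other 9 genes span between 1.17-fold and 1.80-fold.

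Among the 3 abundant chaperones, Hspa5 was higher and Hsp90b1 and Calr were lower with baicalin in the basal pair, and in the luminal pair Hsp90b1 and Calr were lower again. Hspa5 (ENSMUSG00000026864, GRCm38 chromosome 2, 34771970 to 34777547) encodes BiP, the ER Hsp70 that holds unfolded chains and keeps the UPR sensors inactive. It measured 226 FPKM with DMSO and 278 with baicalin in the basal pair, and 204 and 209 in the luminal pair. The FPKM ratio of baicalin to DMSO was 1.23 (95% exact Clopper-Pearson interval 1.21 to 1.25) in the first pair and 1.03 (1.005 to 1.05) in the second. These intervals, here and below, cover counting error only and not the spread between cultures. The baicalin library labelled basal was the highest of the 4, and the other 3 lay close together.

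Hsp90b1 (ENSMUSG00000020048, chromosome 10, 86690209 to 86705509) encodes GRP94, the ER member of the Hsp90 family. It had 201 FPKM with DMSO and 179 with baicalin in the basal pair, and 227 and 161 in the luminal pair. The ratio was 0.892 (0.872 to 0.912) in the first pair and 0.710 (0.694 to 0.726) in the second. Both baicalin libraries were below both DMSO libraries. Hsp90b1 overlaps Gm15344, a processed transcript, and the miRNA gene Gm25745 on the same strand, and the pseudogene 1810014B01Rik on the opposite strand. It shares 273 bases with 1810014B01Rik at 100% identity, and that pseudogene had between 0.621 and 1.32 FPKM. Whether these bases are the overlap itself was not checked.

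Calr (ENSMUSG00000003814, chromosome 8, 84841850 to 84846934) encodes calreticulin, a lectin chaperone that binds calcium and glycoproteins. It had 270.5 FPKM with DMSO and 208 with baicalin in the basal pair, and 336 and 253.5 in the luminal pair. The ratio was 0.768 (0.7503 to 0.787) and 0.754 (0.738 to 0.770). Calr was lower with baicalin in each pair by nearly the same factor, and both luminal values were above the basal value of the same treatment. Hspa5, Hsp90b1 and Calr share the ERSE shown above, as does Dnajc3, and their baicalin values did not go one way.

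The BiP cochaperones gave 1 member that was higher in both pairs. Dnajb9 (ENSMUSG00000014905, chromosome 12, 44205559 to 44210326) encodes ERdj4, a J protein that brings unfolded clients to BiP. It had 16.6 FPKM with DMSO and 23.1 with baicalin in the basal pair, and 15.9 and 28.5 in the luminal pair. Both baicalin libraries were above both DMSO libraries, with ratios of 1.40 (1.28 to 1.53) and 1.79 (1.64 to 1.96). Dnajb9 overlaps the miRNA gene Mir5627 on the opposite strand. The log2 changes, here and below computed after adding 1 FPKM to each value, were 0.46 and 0.81.

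Dnajc3 (ENSMUSG00000022136, chromosome 14, 118937976 to 118981697) encodes P58IPK, a cochaperone also known as an inhibitor of PERK. It had 23.3 and 22.4 FPKM with DMSO and baicalin in the basal pair, and 26.5 and 23.5 in the luminal pair. The ratios were 0.961 (0.907 to 1.02) and 0.884 (0.837 to 0.934), and the 4 libraries spanned 1.19-fold. Sdf2l1 (ENSMUSG00000022769, chromosome 16, 17130138 to 17132383) encodes a soluble ER partner of J proteins and BiP. It had 8.82 and 9.08 FPKM in the basal pair and 10.1 and 8.22 in the luminal pair, with ratios of 1.03 (0.841 to 1.26) and 0.812 (0.665 to 0.992). It had the fewest fragments of the 10 genes, between 188 and 217 a library, so only the second interval leaves out 1, and a difference of the size seen in the first pair was not detectable at this depth.

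The folding enzyme Pdia4 (ENSMUSG00000025823, chromosome 6, 47796141 to 47813430), a protein disulfide isomerase known as ERp72, spanned the narrowest range of the 10 genes, 1.17-fold. It had 71.6 and 77.0 FPKM with DMSO and baicalin in the basal pair, and 84.0 and 75.2 in the luminal pair. The ratios were 1.08 (1.03 to 1.13) and 0.895 (0.855 to 0.936), on opposite sides of 1. Pdia4 overlaps the miRNA gene Mir704 on the same strand.

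Of the genes that serve disposal of misfolded proteins, Herpud1 had the largest ratio of the 10. Herpud1 (ENSMUSG00000031770, chromosome 8, 94386438 to 94395377) encodes a membrane protein that gathers the ER ubiquitin ligase complex. It had 8.89 FPKM with DMSO and 18.1 with baicalin in the basal pair, and 15.7 and 34.2 in the luminal pair. The ratios were 2.03 (1.81 to 2.29) and 2.18 (1.997 to 2.39), and the log2 changes were 0.95 and 1.08. Both baicalin libraries were above both DMSO libraries, and its rank among the 10 genes went from 9 to 8 in the first pair and from 8 to 5 in the second. Herpud1 is the only member whose window held an ERSE-II or the ATF4 composite site, and the part of these sites in its level was not tested. It overlaps the antisense gene Gm15890 on the opposite strand, and whether the counting used strand is not stated.

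Edem1 (ENSMUSG00000030104, chromosome 6, 108828641 to 108859356) encodes a mannosidase-like protein that marks misfolded glycoproteins for export. It had 14.2 and 15.3 FPKM with DMSO and baicalin in the basal pair, and 9.50 and 12.8 in the luminal pair. The ratios were 1.08 (1.01 to 1.15) and 1.35 (1.25 to 1.45). Edem1 was higher with baicalin in each pair, but the DMSO library labelled basal was above the baicalin library labelled luminal.

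Xbp1 (ENSMUSG00000020484, chromosome 11, 5520659 to 5525893), the transcription factor of the IRE1 arm, was lower with baicalin in the basal pair and within counting error of its control in the luminal pair. It had 41.3 FPKM with DMSO and 26.6 with baicalin in the basal pair, and 26.2 and 26.9 in the luminal pair. The ratios were 0.645 (0.607 to 0.686) and 1.03 (0.961 to 1.10). The DMSO library labelled basal stood above the other 3, which lay within counting error of one another where compared. FPKM per gene do not separate spliced from unspliced Xbp1 mRNA, so the splicing state was not measured. Luminal markers summed to 4573 FPKM with DMSO and 3250 with baicalin in the basal pair, and to 1396 and 1214 in the luminal pair. The part of cell makeup in the Xbp1 values was not tested.

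**Figure D3:**
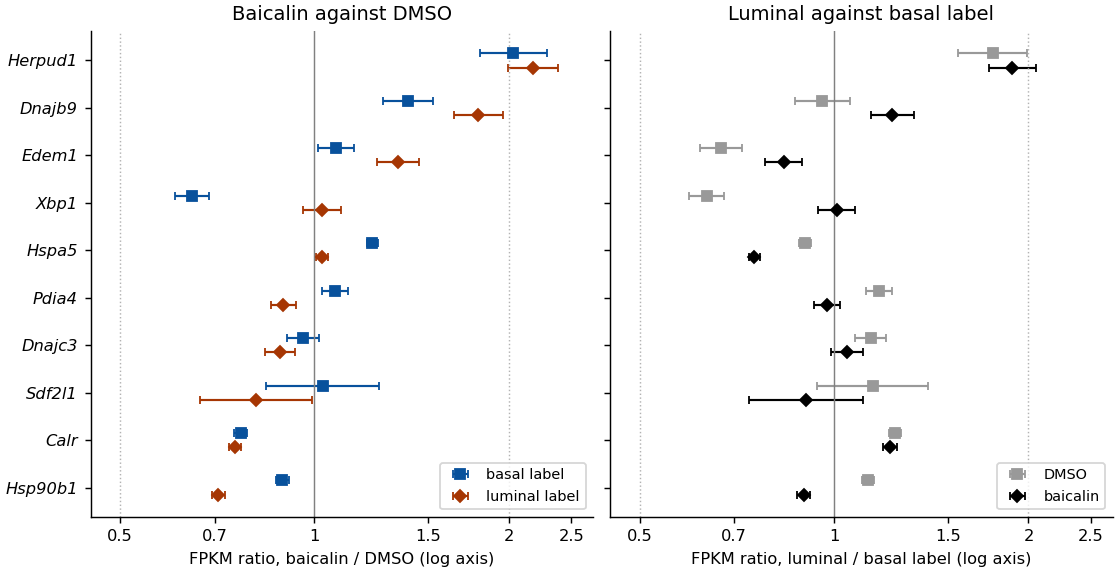
FPKM ratios of the 10 genes on log axes, baicalin over DMSO for each label at left and luminal over basal label for each treatment at right. Bars are 95% exact intervals for counting error, dotted lines mark ratios of 0.5 and 2, and Herpud1 lies farthest to the right in both panels while Xbp1 is below 1 for baicalin with the basal label.

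Counted over the 10 genes, baicalin did not move the set one way. In the basal pair 6 members were higher and 4 lower, where 50.9% of all genes compared were higher. A log2 change past 1 was found upward in 0 members, against 2.15% of all genes, and downward in 0, against 3.33%. The median log2 change of the members was 0.07, and that of all genes 0.01. In the luminal pair 5 members were higher and 5 lower, where 45.6% of all genes were higher. Herpud1 was the 1 member higher by more than 1, against 2.37% of all genes, and 0 were lower by more than 1, against 1.59%. The medians were -0.06 for the members and -0.02 for all genes. With so few members these shares cannot be read as different from the background.

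Summed FPKM over the 10 genes, which Calr, Hspa5 and Hsp90b1 carry, was 883 with DMSO and 857.5 with baicalin in the basal pair, a ratio of 0.971. In the luminal pair it was 955 and 833.2, a ratio of 0.872. Across the 2 pairs, Hspa5, Herpud1, Dnajb9 and Edem1 were higher with baicalin in both, and Hsp90b1, Dnajc3 and Calr were lower in both. The signs differed for Xbp1, Sdf2l1 and Pdia4. The change in the basal pair minus that in the luminal pair was largest for Xbp1, -0.65, and lay between -0.35 and 0.33 for the other 9 genes. With 1 library in each condition this difference could not be tested.

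Between the labels no member differed by more than 1 on the log2 scale. These comparisons use the same 4 libraries as those of baicalin, so they are not independent of them. With DMSO, 6 members were higher in the library labelled luminal and 4 lower, where 52.5% of all genes were higher, and 0 passed a difference of 1 in either direction, where 4.71% of genes were higher and 3.86% lower by that much. With baicalin, 5 were higher and 5 lower, where 45.2% of all genes were higher, and again 0 passed 1, where 5.24% were higher and 2.99% lower. Herpud1 had the largest FPKM ratio of luminal to basal label, 1.76 (1.56 to 1.99) with DMSO and 1.89 (1.74 to 2.05) with baicalin. Calr was higher under the luminal label too, with ratios of 1.24 (1.22 to 1.27) and 1.22 (1.19 to 1.25). Edem1 was lower there, with ratios of 0.668 (0.621 to 0.719) and 0.835 (0.782 to 0.891). Xbp1 had a ratio of 0.634 (0.596 to 0.675) with DMSO and 1.01 (0.945 to 1.08) with baicalin. The marker sums given above moved with these comparisons, and their part was not tested.

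Other genes of the pathway were read in 12 lists, ordered from the sensors to the export of folded proteins. Of all genes compared, 50.9% were higher with baicalin in the basal pair and 45.6% in the luminal pair. The shares past 1 were 2.15% higher and 3.33% lower in the first pair, and 2.37% and 1.59% in the second. Of 12 sensors and transducers, 11 were compared, and 8 were higher and 3 lower with baicalin in the basal pair, with a median log2 change of 0.20. In the luminal pair 7 were higher and 4 lower, and the median was 0.21. Atf6, the sensor cut in the Golgi, had 9.97 and 22.0 FPKM with DMSO and baicalin in the basal pair, and 8.395 and 11.5 in the luminal pair. Ern1, which encodes IRE1, had 6.02 and 11.3 FPKM in the first pair and 6.07 and 7.16 in the second. Eif2ak3, which encodes PERK, had 13.9 and 11.4 FPKM in the first pair and 7.43 and 11.8 in the second. Atf6 and Ern1 were thus higher with baicalin in each pair, and Eif2ak3 was not. Creb3l4, an ATF6-like transcription factor, had log2 changes of -0.58 and -0.90. Besides Atf6, Creb3l1 was higher by more than 1 with the basal label, at 0.271 and 2.33 FPKM, and was named after its value was seen.

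Most genes of the PERK, ATF4 and CHOP list, the arm that adapts metabolism and can start cell death, were higher with baicalin. Of its 17 genes, 16 were higher and 1 lower with baicalin in the basal pair, 8 of them higher by more than 1, with a median of 0.96. In the luminal pair 17 were higher and 0 lower, 5 by more than 1, and the median was 0.75. Of all genes compared, 2.15% and 2.37% were higher by more than 1 in the basal and luminal pairs. Trib3, a pseudokinase, had 20.1 and 90.5 FPKM in the first pair and 4.98 and 32.2 in the second. Chac1, an enzyme that breaks down glutathione, had 2.86 and 14.3 FPKM, and 0.726 and 8.25. Atf5, a transcription factor, had 40.6 and 79.9 FPKM, and 12.96 and 55.3. The list was written knowing that ATF4 targets were high in these libraries, so its direction is not independent evidence. Of its genes, 14 had a promoter window, 4 with the ATF4 composite site and 0 with an ERSE or ERSE-II.

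**Figure D4:**
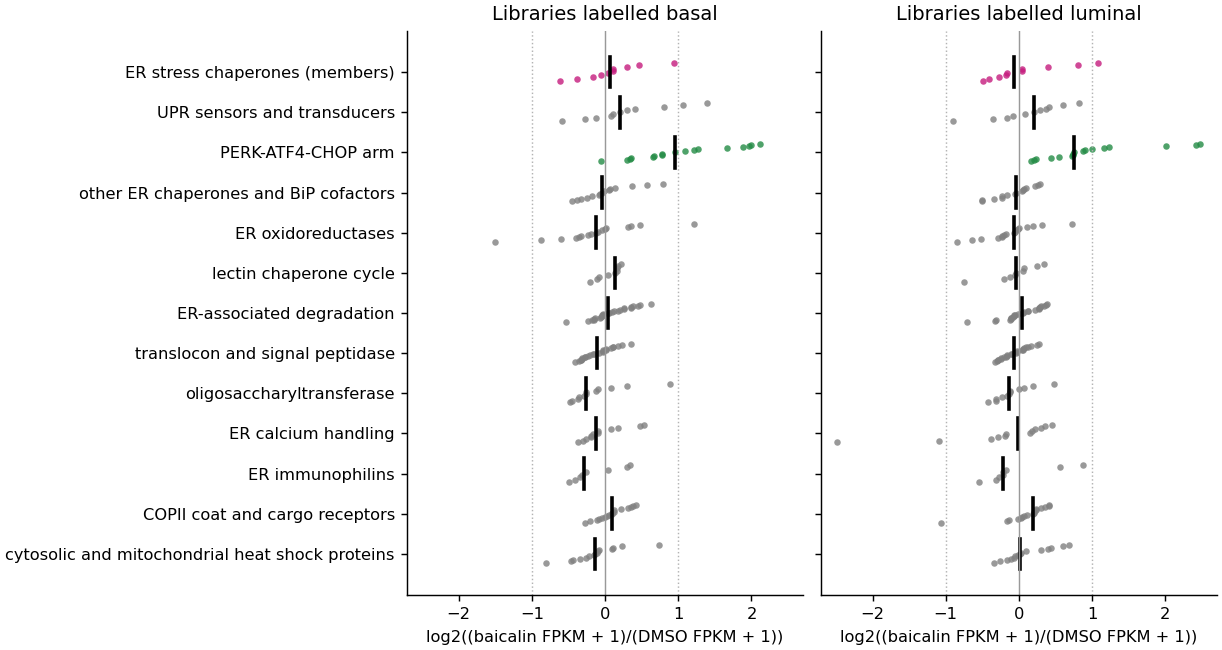
Log2 change with baicalin of each gene compared, by list, with the basal pair at left and the luminal pair at right. Points are genes, black ticks are list medians, dotted lines mark -1 and 1, and the medians of the 10 members are 0.07 and -0.06 while those of the PERK, ATF4 and CHOP list are 0.96 and 0.75.

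The lists that act beside the 10 genes in folding had medians near that of all genes. Of 15 other ER chaperones and BiP cofactors, 6 were higher and 9 lower with baicalin in the basal pair, and 7 were higher and 8 lower in the luminal pair, with medians of -0.04 and -0.05. Sil1, which renews the nucleotide of BiP, had log2 changes of 0.57 and 0.22, Creld1 had 0.80 and 0.29, and Dnajc10, a J protein that reduces disulfides, had -0.45 and -0.51. Of 17 oxidoreductases, 6 were higher and 11 lower, then 4 higher and 13 lower, with medians of -0.12 and -0.06. Ero1l, the oxidase that recharges protein disulfide isomerases and that also stands in the PERK, ATF4 and CHOP list, had 20.5 and 48.8 FPKM in the basal pair and 13.7 and 23.4 in the luminal pair. Prdx4, an ER peroxiredoxin, had 16.0 and 5.01 FPKM, and 18.8 and 10.003. These 2 enzymes gave the only log2 changes past 1 in the list, 1.21 and -1.50 with the basal label, and Tmx4, a membrane thioredoxin, had -0.88 and -0.51.

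In the lectin chaperone cycle, in which calreticulin acts, 9 of 10 genes were compared. With the basal label 6 were higher and 3 lower, at a median of 0.14, and with the luminal label 4 were higher and 5 lower, at a median of -0.04. The glucosidase gene Mogs had log2 changes of 0.14 and -0.75, Prkcsh, of the next glucosidase, 0.16 and 0.25, and the mannosidase gene Man1b1 0.22 and 0.06. Of 26 genes of ER-associated degradation, the process that Herpud1 and Edem1 serve, 14 were higher and 12 lower in each pair, with medians of 0.04 and 0.05. Sel1l, the adaptor of its main ligase, had log2 changes of 0.63 and 0.30, Herpud2, the relative of Herpud1, 0.48 and 0.05, and Vcp, the ATPase that extracts clients, -0.53 and 0.12. Of these 26 genes, 0 passed 1 in either direction in either pair.

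Genes that bring chains into the ER, glycosylate them and turn their prolines were read in 3 lists, beside the 50.9% and 45.6% of all genes that were higher in the basal and luminal pairs. Of 24 translocon and signal peptidase genes, 8 were higher and 16 lower with the basal label and 9 higher and 15 lower with the luminal label, with medians of -0.12 and -0.07. Ssr1 had log2 changes of -0.42 and -0.29, Spcs3 -0.36 and -0.17, and Srp72 0.35 and 0.07. Of 12 oligosaccharyltransferase genes, 3 were higher and 9 lower in each pair, with medians of -0.26 and -0.13. Ostc had -0.48 and -0.31 and Tusc3 -0.44 and -0.16, while Krtcap2, whose window held an ERSE-II, had 0.89 and 0.48. Among 8 ER immunophilins, prolyl isomerases of the ER, 3 were higher and 5 lower, then 2 higher and 6 lower, with medians of -0.29 and -0.22. Fkbp2 had log2 changes of -0.31 and -0.55, Fkbp9 -0.41 and -0.28, and Fkbp10 -0.49 and 0.88.

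ER calcium handling, to which calreticulin contributes, had 4 genes higher and 8 lower of 12 with the basal label and 6 higher and 6 lower with the luminal label, with medians of -0.13 and -0.01. Against 1.59% of all genes, 2 were lower by more than 1 with the luminal label. These were Atp2a3, a calcium pump, with 6.29 and 0.303 FPKM, and Rcn3, a calcium binding protein, with 11.5 and 4.85 FPKM. Itpr2, a calcium channel, had log2 changes of 0.54 and 0.17. In the COPII list, which carries folded proteins out of the ER, 11 were higher and 6 lower of 17, then 13 higher and 4 lower. Of all genes, 50.9% and 45.6% were higher. The list medians were 0.09 and 0.20. With the luminal label 1 gene was lower by more than 1, against 1.59% of all genes. This was Sec16b, with 2.48 and 0.671 FPKM, named after its value was seen. Sec16a had log2 changes of 0.35 and 0.41, Sec24d 0.09 and 0.41, and Preb 0.42 and 0.07. Of 15 cytosolic and mitochondrial heat shock genes, 4 were higher and 11 lower, then 8 higher and 7 lower, with medians of -0.14 and 0.01. Hspa9, the mitochondrial Hsp70, had log2 changes of 0.74 and 0.60, Hsph1 -0.80 and 0.39, and Hspb1 -0.16 and 0.68.

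Genes outside the set with the same motifs were read in the same way. Of 17 other genes compared whose window held an ERSE, 11 were higher with baicalin in the basal pair and 6 in the luminal pair, 0 passed 1, and the medians were 0.10 and -0.11. For 8 others with an ERSE-II the medians were 0.14 and 0.01, with 5 and 4 genes higher. For 332 others with the ATF4 composite site they were 0.02 and 0.01. Of these, 16 were higher and 16 lower by more than 1 in the basal pair, where 2.15% and 3.33% of all genes were, and 19 were higher and 4 lower in the luminal pair, where 2.37% and 1.59% were. Creld2, Dnajb11, Pdia6, Canx, Derl3, Syvn1 and Krtcap2 were the genes of the lists with an ERSE or ERSE-II.

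The mean pattern of the 10 genes over the 4 libraries was nearly flat. As centred log2 values it ran from -0.06 in the DMSO library labelled basal to 0.07 in the baicalin library labelled luminal. There were 6633 other genes with at least 5 FPKM in each of the 4 libraries. Those most like the mean pattern by Euclidean distance over these 4 values were Fbxo11 (0.017), Cd151 (0.020), Cops8, Tcf25 and Arpp19 (0.029 for the last). The nearest member was Pdia4, at 0.18, and 605 other genes were closer than it. Herpud1 was the farthest, at 1.21. A likeness over 4 libraries to a flat profile describes little beyond steady levels.

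Levels of other cell types' markers were read because cells that secrete much protein, such as plasma cells, hold these chaperones at high levels. Of the 10 plasma cell markers, Igkc, Tnfrsf17 and Fcrl5 were listed at 0 in all 4 libraries, and Jchain and Mzb1 had at most 0.218 FPKM. Their summed level of 244, 129.5, 175 and 289 FPKM, in the order of libraries given for the basal markers, was held by Sdc1, which epithelial cells also express. Immune markers summed to 86.7 and 98.4 FPKM in the basal pair and to 16.4 and 26.2 in the luminal pair. Ptprc had at most 0.0138 FPKM and Ms4a1 was at 0, so other genes of the list held these sums. Whether immune cells were present was not tested. Fibroblast markers summed to between 16.4 and 286.8 FPKM, endothelial markers to between 2.59 and 8.06, and adipocyte markers to between 1.39 and 22.9. Alveolar luminal markers, among them milk protein genes, summed to between 154 and 270 FPKM with Wap at 0, and hormone-sensing luminal markers to between 90.9 and 202.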

How the data were processed

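RNA of 4 libraries was sequenced after oligo (dT) enrichment and stranded library preparation. The authors deposited FPKM for 54446 genes. The study's methods name HISAT2, GRCm38 and Ensembl release 94, whereas the submitters' processing notes list Bowtie 0.12.2, GRCm38 and mm8, and which was used is not given in the sources used here, nor is the strand setting. Positions and exon lengths came from GENCODE mouse release 21 (GRCm38). Times exon length, the FPKM gave whole fragments (within 0.1) for at least 98.9% of low-count genes, and from these came library depth and the exact intervals.

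Changes are log2 differences after adding 1 FPKM, over 17787 genes above 0 in all 4 libraries, with a threshold of 1. This understates changes of low genes. Groups followed the labels, and with 1 library per group no test was run, so the study's t-test was not repeated. The members and lists were chosen with earlier results of these data known. The 12 pathway lists and 9 marker lists came from general knowledge, and genes were named as the 3 largest changes per list with at least 5 FPKM in a library, the 3 sensors, all members and the 5 most alike genes. Alternatives were 2 pseudocounts, 2 filters, TPM, centring and 2 thresholds. Promoter windows are from RefSeq and matched all 10 genes. Near-identical copies were sought with minimap2 2.31 at 95% identity over 200 bases. The work used scipy 1.17.1, pandas 2.3.3 and numpy 2.4.6 under Python 3.11.15, with figures by matplotlib 3.10.9, and the computation was tested on simulated data.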

Additional observations from a re-analysis of the deposited data

Results flagged for a closer look

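Of the 192 members and pathway list genes compared, 27 had an FPKM ratio of baicalin to DMSO on opposite sides of 1 in the 2 labels, with both counting intervals leaving out 1. The 7 among them that the naming rule selects are given here. The difference was not tested, since each condition has 1 library. Among the 10 members this was Pdia4, with ratios of 1.08 with the basal label and 0.895 with the luminal label. Eif2ak3, which encodes PERK, had 0.818 and 1.58. Mogs had 1.11 and 0.569, Vcp 0.692 and 1.09, and Fkbp10 0.522 and 1.96. The heat shock genes Hsph1 and Hspb1 had 0.561 and 1.34, and 0.896 and 1.61.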

How the results depend on the processing

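No paired analysis was possible because the groups compared share fewer than 2 replicate numbers. A fit that takes the 2 labels as pairs, and so as replicates of each other, was not run. Depth limits little here except for Sdf2l1, and the lack of replicates limits every comparison. Signs of the member changes with baicalin, and of their differences between labels with DMSO, were kept under the pseudocounts, filters, TPM and centring tried for 10 of 10 members. Between labels with baicalin 8 of 10 kept theirs, and Dnajc3 and Xbp1 did not. With a pseudocount of 0.1 or none, 1 member, Herpud1, in place of 0, was higher by more than 1 with baicalin with the basal label. With a threshold of 0.5, members higher and lower with baicalin numbered 1 (Herpud1) and 1 (Xbp1) for the basal label, and 2 were higher (Herpud1 and Dnajb9) for the luminal label. Between labels at 0.5, 1 was higher and 2 lower with DMSO, and 1 was higher with baicalin. With a threshold of 2, 0 members passed for the luminal label in place of 1. Among all genes, those higher and lower with baicalin for the basal label numbered 383 and 592 as reported, 1123 and 1302 with a pseudocount of 0.1, 1693 and 2054 with none, 696 and 1002 as TPM, 1728 and 1696 at a threshold of 0.5, and 41 and 132 at 2. For the luminal label they numbered 421 and 282 as reported, and 1052 and 913, 1559 and 1537, 718 and 578, 1424 and 1475, and 60 and 46 in the same order. Between labels with DMSO they numbered 837 and 686, and 2027 and 1467, 2872 and 1926, 1306 and 1279, 2522 and 2195, and 185 and 150. With baicalin they numbered 932 and 531, and 2030 and 1327, 2632 and 2003, 1439 and 1083, 2237 and 2172, and 242 and 59. With genes of at least 1 FPKM in all 4 libraries they numbered 269 and 352, 291 and 132, 403 and 493, and 484 and 352 in the order of these comparisons.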
